A study of Homo sapiens with 9 samples.

Results

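The genes described here are the receptors through which cells hold and sense collagen: the integrin chains ITGA1, ITGA2, ITGA10, ITGA11 and ITGB1, the integrin-related secreted protein ITGBL1, and the discoidin receptors DDR1 and DDR2. The 8 genes were taken by symbol from the 36385 genes of the deposited table, and all 8 were found and had enough counts to be tested in each comparison. RNA was sequenced from cells of MG-63, a bone tumour line from a human osteosarcoma that often stands in for osteoblasts, grown on boronized Ti6Al4V with HA (HA coating), on Ti6Al4V carrying TiB2 (TiB2), or on Ti6Al4V alone (bare alloy), the titanium alloy of many implants. Each of the 3 surfaces had 3 libraries, and cells on all of them were kept for 7 days in osteogenic medium with dexamethasone (100 nM), ascorbic acid (50 µg/mL) and beta-glycerophosphate (10 mM). The series asks how the boronized surface with HA acts on osteogenic differentiation, and the labels state that the TiB2 libraries were not part of the study's final analysis. Whether the libraries of a surface came from separate cultures is not said in the labels, so the spread behind the p-values may be only technical. MG-63 is a single established line, and each library is bulk RNA, in which fewer cells of a kind and less RNA per cell cannot be told apart.

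An integrin is a pair of an alpha and a beta chain. ITGA1, ITGA2, ITGA10 and ITGA11 each pair with ITGB1, and each carries an inserted domain with a metal ion site that grips collagen. The α2 and α11 chains are known for binding fibrillar collagens, of which type I is the main protein of bone matrix, while α1 is known for a preference for type IV collagen. DDR1 and DDR2 are receptor tyrosine kinases that collagen itself activates, DDR2 mainly in mesenchymal cells and by fibrillar collagens.

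The codons of the metal ion site are shown because they are what the 4 alpha chains share at the point of contact with collagen. Each stretch below is 60 bases of coding sequence from a GENCODE 29 transcript, 5′ to 3′, with the 15 bases of the conserved motif in capitals.
ITGA1: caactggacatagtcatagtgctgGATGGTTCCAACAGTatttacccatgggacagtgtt
ITGA2: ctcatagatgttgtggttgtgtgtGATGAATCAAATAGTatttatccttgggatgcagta
ITGA10: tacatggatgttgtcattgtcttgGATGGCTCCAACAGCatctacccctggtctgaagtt
ITGA11: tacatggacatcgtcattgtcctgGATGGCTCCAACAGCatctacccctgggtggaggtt
ITGA10 and ITGA11 had the same base at 52 of the 60 positions, the most of any pair, and at all 15 positions of the motif. ITGA2 and ITGA11, a pair whose levels moved in opposite directions in these cells, had the same base at 35 of the 60 positions, the fewest of any pair, and at 10 of the 15 motif positions. ITGA1 lay nearer to ITGA11, at 45 positions, than to ITGA2, at 36 positions.

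Library totals ran from 60528871 to 72542556 counts on the HA coating, from 62951461 to 63413815 on TiB2 and from 58464306 to 63122541 on bare alloy. Of 9 osteoblast and mesenchyme markers, 8 reached 1 FPKM (fragments per unit of gene length, scaled to library size). COL1A1, COL1A2, COL3A1, SPARC, CDH11, TWIST1 and VIM were lower in every coated library than in any bare alloy library. ALPL and RUNX2 did not follow them. SPARC had 307 to 387 FPKM on the HA coating, 479 to 517 on TiB2 and 782 to 818 on bare alloy. VIM had 533 to 835 FPKM on the HA coating, 642 to 744 on TiB2 and 972 to 1348 on bare alloy, while ALPL had 2.45 to 5.26 FPKM on the HA coating, 3.58 to 5.21 on TiB2 and 0.354 to 0.708 on bare alloy. RUNX2 had 0.223 to 0.487 FPKM on the HA coating, 0.394 to 0.494 on TiB2 and 0.245 to 0.283 on bare alloy. The 6 T cell markers stayed under 1 FPKM, but they split the libraries: CD3D, CD3E and LCK had 0 counts in the 3 HA libraries and in bare replicate 1, and had counts in the 3 TiB2 libraries and bare replicates 2 and 3. The summed level of the 6 markers was 0.00 to 0.0473 FPKM on the HA coating, 1.76 to 2.24 on TiB2 and 0.0037 to 1.72 on bare alloy. The epithelial marker CLDN4 split the libraries in the same way but in the opposite direction. It had 261 to 276 counts in the HA libraries and 261 in bare replicate 1. It had 26 to 52 counts in the TiB2 libraries and 37 and 29 in bare replicates 2 and 3. The epithelial markers EPCAM and KRT18 did not split the libraries in this way. The HA and TiB2 libraries lay on opposite sides of that split, so this set of libraries and the surface cannot be told apart when they are compared with each other. Bare replicate 1 also stood apart in that 4 genes on chromosome 21 described as similar to YAM1 took 6.46% of its counts. They took 1.07% and 0.617% in bare replicates 2 and 3, 0.083% to 0.197% on the HA coating and 0.137% to 0.155% on TiB2. Every bare alloy library thus lay above every coated library in this share, and its part in the results was not tested. The endothelial marker CDH5 had 0.177 to 0.562 FPKM on the HA coating, 0.440 to 0.594 on TiB2 and 3.26 to 4.23 on bare alloy, with VWF at 0.0344 FPKM or less. The endothelial markers did not move together. In the same order of surfaces, PECAM1 had 0.928 to 1.22, 0.724 to 0.863 and 0.727 to 0.824 FPKM. KDR had 0.0816 to 0.135, 0.0190 to 0.0516 and 0.00 to 0.0245 FPKM. TEK had 0.326 to 0.516, 0.321 to 0.401 and 0.512 to 0.588 FPKM, and CLDN5 had 0.0557 FPKM or less. The part of CDH5 in the results was not tested.

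The 4 alpha chains changed in different directions on the coated surfaces. ITGA2 was higher and ITGA1 and ITGA11 were lower on both coated surfaces than on bare alloy, and ITGA10 passed no test. The 8 genes and the related lists below were chosen with earlier results of these data known. Their shares are set beside those of all genes as a description and not as a test of enrichment. Of the 8 genes, 5 passed edgeR's quasi-likelihood test for HA coating against bare alloy, 1 higher and 4 lower, where 9.89% of all 20117 genes tested passed, 5.02% higher and 4.88% lower. For TiB2 against bare alloy it was also 5 of 8, again 1 higher and 4 lower, where 25.1% of 20152 genes passed, 12.9% higher and 12.2% lower. The 5 genes were ITGA1, ITGA2, ITGA11, ITGBL1 and DDR2 both times, and both comparisons share the 3 bare alloy libraries. At 5 FPKM or more, 4 of the 5 members tested passed in each comparison. There 1148 of 6786 genes passed for HA coating and 2859 of 6677 for TiB2.

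**Figure D1:**
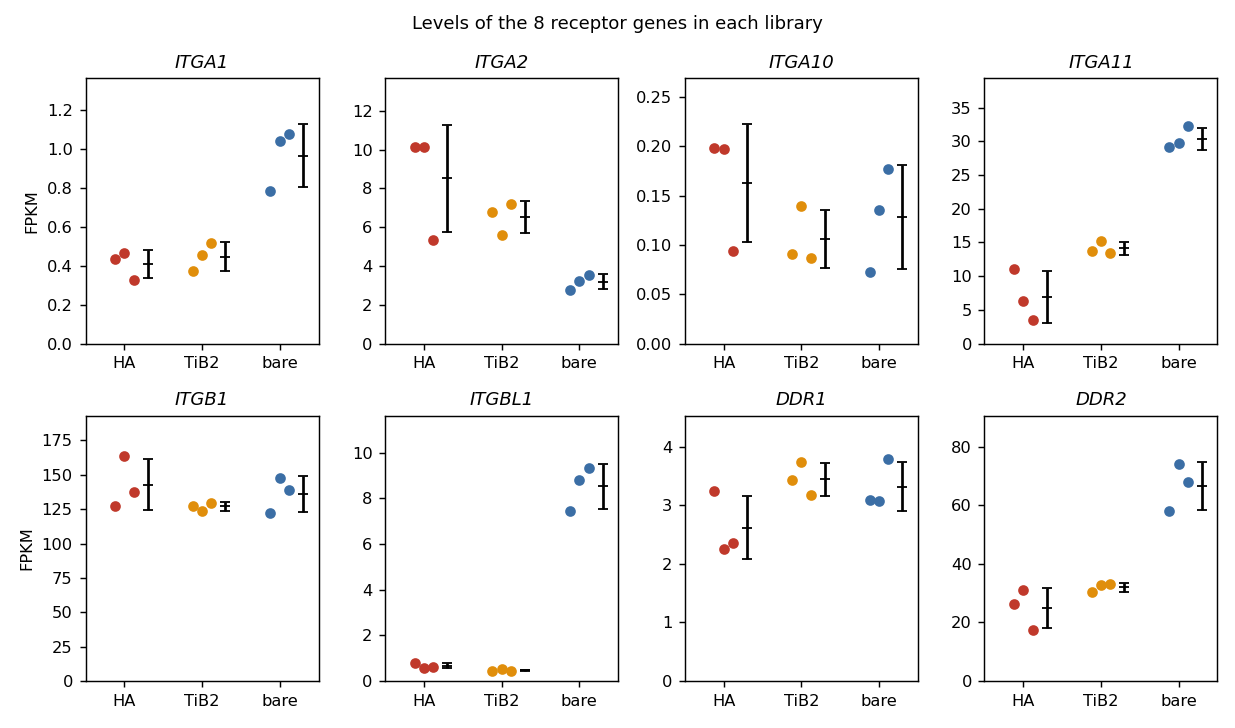
FPKM of each of the 8 genes (vertical axes, each from 0) in the 3 libraries of HA coating, TiB2 and bare alloy, as points, with the mean and SD beside them. ITGA1, ITGA11, ITGBL1 and DDR2 lie lower in all coated libraries than in any bare alloy library, ITGA2 lies higher, and ITGA10, ITGB1 and DDR1 overlap.

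The calls against bare alloy were checked without bare replicate 1 and with the library set in the fit. The library set is the split seen in the T cell markers and in CLDN4, and its fit used all 9 libraries. Bare replicate 1 is the only bare alloy library on the HA side of that split. Without it, the HA coating and the library set cannot be told apart. With the set in the fit, the HA coating is compared with bare replicate 1 alone. Neither check settles whether the HA calls depend on the library set. Without bare replicate 1 the same number of genes passed, 5 of 8 in both comparisons. With the library set in the fit it was 5 of 8 for HA coating and 4 of 8 for TiB2.

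ITGA2, the α2 chain, had 10.1, 10.1 and 5.34 FPKM on the HA coating, 6.80, 5.57 and 7.17 FPKM on TiB2, and 2.78, 3.25 and 3.55 FPKM on bare alloy. Every coated library exceeded every bare alloy library, and HA replicate 3, the lowest of its group, lay below the TiB2 libraries. ITGA2 was 2.60-fold higher on the HA coating than on bare alloy (log2 fold change 1.38 ± 0.22, SE; adjusted p = 0.00649, edgeR's quasi-likelihood test with Benjamini-Hochberg adjustment over all genes). On TiB2 it was 1.98-fold higher than on bare alloy (0.98 ± 0.11; adjusted p = 0.000261 by the same edgeR test).

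ITGA11, the α11 chain of fibroblasts and other mesenchymal cells, had 11.1, 6.28 and 3.43 FPKM on the HA coating, 13.8, 15.2 and 13.4 FPKM on TiB2, and 29.1, 29.8 and 32.2 FPKM on bare alloy. The 3 groups did not overlap, and the HA libraries were the most spread. ITGA11 was 4.51-fold lower on the HA coating than on bare alloy (-2.17 ± 0.34; adjusted p = 0.0065, edgeR). On TiB2 it was 2.23-fold lower than on bare alloy (-1.15 ± 0.07; adjusted p = 1.04e-05, edgeR). In the edgeR fit of all 9 libraries with the library set as a term it did not pass, at a similar fold change (-1.14; adjusted p = 0.0809).

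ITGA1, the α1 chain, was scarce throughout, with 0.434, 0.463 and 0.325 FPKM on the HA coating, 0.370, 0.453 and 0.517 FPKM on TiB2, and 0.781, 1.04 and 1.08 FPKM on bare alloy. All 6 coated libraries lay below the lowest bare alloy library, and the coated groups overlapped. Its counts were 462 to 552 on the HA coating, 456 to 636 on TiB2 and 914 to 1275 on bare alloy. ITGA1 was 2.41-fold lower on the HA coating (-1.27 ± 0.18; adjusted p = 0.00441, edgeR) and 2.23-fold lower on TiB2 (-1.15 ± 0.15; adjusted p = 0.000547, edgeR), each against bare alloy.

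ITGA10, the α10 chain best known from cartilage, had the lowest level of the 8 genes, with 45 to 81 counts on the HA coating, 37 to 58 on TiB2 and 29 to 71 on bare alloy. Its level was 0.163 ± 0.060 FPKM on the HA coating, 0.106 ± 0.030 on TiB2 and 0.129 ± 0.053 on bare alloy (SD, n = 3 each), and the groups overlapped. The 95% interval of its log2 fold change ran from -0.66 to 1.29 for HA coating against bare alloy and from -1.20 to 0.58 for TiB2 against bare alloy, so a 2-fold rise on the HA coating and a 2-fold fall on TiB2 both lay inside the intervals.

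ITGB1, the partner of all 4 alpha chains, was by far the most abundant of the 8 genes. It had 128, 163 and 138 FPKM on the HA coating, 128, 124 and 129.6 FPKM on TiB2, and 122, 148 and 139 FPKM on bare alloy. The 3 groups overlapped. Its log2 fold change had a 95% interval from -0.37 to 0.46 for HA coating against bare alloy and from -0.34 to 0.04 for TiB2 against bare alloy, and neither passed the edgeR test (adjusted p = 0.896 for HA coating and 0.242 for TiB2).

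ITGBL1, a secreted protein with repeats like those of an integrin beta chain but no membrane anchor, showed the largest fall of the 8 genes. It had 0.780, 0.572 and 0.618 FPKM on the HA coating, 0.453, 0.503 and 0.454 FPKM on TiB2, and 7.43, 8.81 and 9.33 FPKM on bare alloy. The coated libraries were all under 1 FPKM and the bare alloy libraries all above 7 FPKM. The fall against bare alloy was 13.0-fold on the HA coating (-3.70 ± 0.19; adjusted p = 3.41e-05, edgeR) and 18.5-fold on TiB2 (-4.21 ± 0.10; adjusted p = 1.37e-07, edgeR). The end of ITGBL1 overlaps FGF14 on the opposite strand, which had 9 to 23 counts on the HA coating, 9 to 17 on TiB2 and 110 to 153 on bare alloy. ITGBL1 itself had 228 to 310 counts on the HA coating, 187 to 208 on TiB2 and 2889 to 3599 on bare alloy. FGF14 fell by 3.22 on the log2 scale on the HA coating (adjusted p = 0.0028, edgeR) and fell by 3.37 on TiB2 (adjusted p = 0.000111, edgeR). No source used here gives the use of strand in counting, and reads of the 2 genes where they overlap cannot be told apart.

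DDR2, the discoidin receptor of mesenchymal cells, had 26.1, 31.2 and 17.5 FPKM on the HA coating, 30.3, 32.6 and 33.2 FPKM on TiB2, and 58.0, 74.1 and 67.8 FPKM on bare alloy. No coated library reached the lowest bare alloy library. DDR2 was 2.74-fold lower on the HA coating (-1.45 ± 0.21; adjusted p = 0.00415, edgeR) and 2.15-fold lower on TiB2 (-1.10 ± 0.08; adjusted p = 1.98e-05, edgeR), each against bare alloy.

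DDR1, the discoidin receptor best known from epithelial cells, had 3.24, 2.26 and 2.36 FPKM on the HA coating, 3.43, 3.74 and 3.17 FPKM on TiB2, and 3.08, 3.07 and 3.80 FPKM on bare alloy. The 3 groups overlapped, with the lowest values in HA replicates 2 and 3. Its log2 fold change had a 95% interval from -0.79 to 0.07 for HA coating against bare alloy (adjusted p = 0.254, edgeR) and from -0.23 to 0.24 for TiB2 against bare alloy (adjusted p = 0.982, edgeR). The ratio of DDR2 to DDR1 in FPKM was 9.75 ± 3.52 on the HA coating, 9.34 ± 0.97 on TiB2 and 20.3 ± 3.39 on bare alloy (SD, n = 3 each). Both coated groups lay below bare alloy without overlap, which in an exact two-sided permutation test gave p = 0.1, the smallest that 3 libraries against 3 allow.

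**Figure D2:**
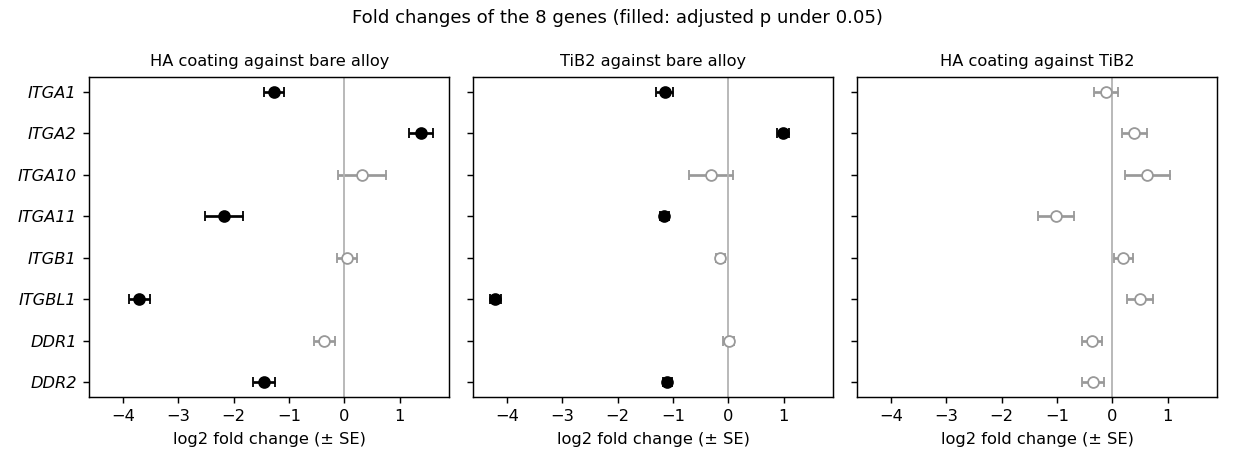
Log2 fold change of each of the 8 genes (horizontal axis, with SE bars) for HA coating against bare alloy, TiB2 against bare alloy and HA coating against TiB2, filled where the adjusted p is under 0.05. ITGBL1 lies farthest from 0 in both comparisons with bare alloy, at -3.70 and -4.21, and no gene is filled for HA coating against TiB2.

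For HA coating against TiB2, 0 of the 8 genes passed the edgeR test, where 0.632% of 20086 genes passed. DESeq2 and limma also called 0 of the 8, and 1 gene, ITGA11, had an unadjusted p under 0.05 in the edgeR test. ITGA11 had a log2 fold change of -1.02 (95% interval -1.75 to -0.29; unadjusted p = 0.0108 and adjusted p = 0.289 in edgeR's test across all genes), with no overlap between the 3 HA and 3 TiB2 libraries. Without HA replicate 1, the highest of its group, the same edgeR fit gave -1.52 with an adjusted p = 0.020. The other intervals were -0.11 to 0.90 for ITGA2, -0.59 to 0.35 for ITGA1, -0.29 to 1.54 for ITGA10, -0.19 to 0.58 for ITGB1, -0.02 to 1.02 for ITGBL1, -0.78 to 0.05 for DDR1 and -0.80 to 0.10 for DDR2. The widest of these, for ITGA10, reaches 1.54 on the log2 scale and that of ITGA11 reaches -1.75, so the 2 coated surfaces are not shown to act alike.

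The order of the genes by level differed between surfaces below ITGB1 and DDR2, which were the first and the second on each. On the HA coating ITGA2 (8.53 ± 2.76 FPKM) and ITGA11 (6.93 ± 3.88 FPKM) came next with overlapping ranges, followed by DDR1, ITGBL1, ITGA1 and ITGA10. On TiB2 ITGA11 (14.1 ± 0.94 FPKM) stood above ITGA2 (6.51 ± 0.84 FPKM) without overlap, then DDR1, ITGBL1, ITGA1 and ITGA10, of which ITGBL1 and ITGA1 overlapped. On bare alloy ITGA11 (30.4 ± 1.66 FPKM) was followed by ITGBL1, and then by DDR1 and ITGA2 (3.19 ± 0.39 FPKM), which overlapped, with ITGA1 and ITGA10 last (SD, n = 3 each).

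Expressed as shares of the summed FPKM of the 4 alpha chains, the balance moved between ITGA11 and ITGA2. ITGA2 made up 46.3%, 59.4% and 58.1% on the HA coating, 32.3%, 26.1% and 33.9% on TiB2, and 8.48%, 9.49% and 9.58% on bare alloy. ITGA11 made up 50.8%, 36.8% and 37.3% on the HA coating, 65.5%, 71.1% and 63.3% on TiB2, and 88.9%, 87.1% and 87.0% on bare alloy. The 3 surfaces did not overlap in either share. The mean difference in the ITGA2 share was 45.4 percentage points for HA coating against bare alloy, 21.6 for TiB2 against bare alloy and 23.8 for HA coating against TiB2, and each gave p = 0.1 in the exact two-sided permutation test, the smallest possible. In FPKM the log2 ratio of ITGA2 to ITGA11 was 0.40 ± 0.46 on the HA coating, -1.12 ± 0.29 on TiB2 and -3.26 ± 0.11 on bare alloy (SD, n = 3 each).

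**Figure D3:**
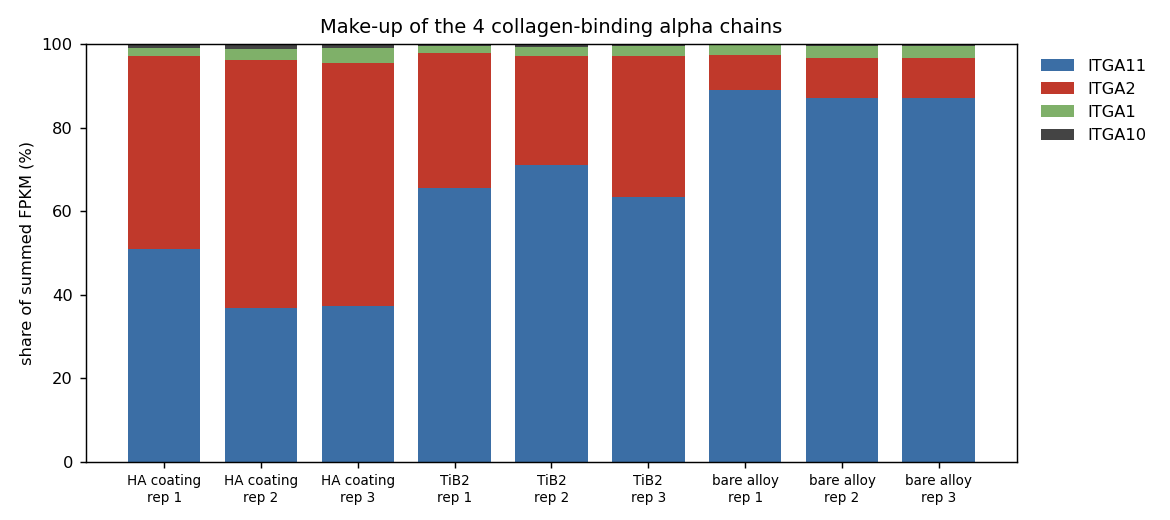
Share of the summed FPKM of the 4 collagen-binding alpha chains (vertical axis, percent) in each library, stacked with ITGA11 at the bottom and ITGA2 above it. The ITGA2 band covers 46.3% to 59.4% in the HA libraries, 26.1% to 33.9% in the TiB2 libraries and 8.48% to 9.58% in the bare alloy libraries.

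The share of ITGA1 overlapped between surfaces, although its level fell. It made up 2.75% ± 0.78 of the alpha chains on the HA coating, 2.11% ± 0.34 on TiB2 and 2.78% ± 0.34 on bare alloy (SD, n = 3 each), and each coated group overlapped bare alloy (exact permutation p = 1.0 for HA coating and 0.2 for TiB2). The summed level of the 4 chains was 16.0 ± 6.39 FPKM on the HA coating, 21.2 ± 0.15 on TiB2 and 34.7 ± 2.2 on bare alloy. Set against ITGB1, that sum was 11.4% ± 5.28 on the HA coating, 16.7% ± 0.49 on TiB2 and 25.5% ± 2.07 on bare alloy (SD, n = 3 each). Both coated groups lay below bare alloy without overlap in the sum and in its ratio to ITGB1 (exact permutation p = 0.1, the smallest possible).

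ITGA1 and ITGA2 are neighbours on chromosome 5 of GRCh38. ITGA1 (ENSG00000213949) spans 52787916 to 52959209 and ITGA2 (ENSG00000164171) spans 52989340 to 53094779, both on the plus strand, with 30.1 kb between them. The other alpha chains lie apart, ITGA11 (ENSG00000137809) at 68296532 to 68432163 on the minus strand of chromosome 15 and ITGA10 (ENSG00000143127) at 145891208 to 145910111 on the minus strand of chromosome 1. ITGB1 (ENSG00000150093) spans 32887273 to 33005792 on the minus strand of chromosome 10, ITGBL1 (ENSG00000198542) spans 101452667 to 101720856 on the plus strand of chromosome 13, DDR1 (ENSG00000204580) spans 30876421 to 30900154 on the plus strand of chromosome 6, and DDR2 (ENSG00000162733) spans 162631373 to 162787405 on the plus strand of chromosome 1. PELO, a gene for a ribosome rescue factor, starts at the same base as ITGA1 on the same strand. It ends at 52804044 and so lies within the span of ITGA1. PELO had 2190 to 3548 counts on the HA coating, 2256 to 2334 on TiB2 and 1744 to 2160 on bare alloy, more than ITGA1. Reads of PELO and ITGA1 where they overlap cannot be told apart by strand. The part of such reads in the ITGA1 counts was not tested. PELO had 8.97, 7.81 and 10.6 FPKM on the HA coating, 7.80, 8.05 and 8.07 FPKM on TiB2, and 6.34, 7.48 and 7.56 FPKM on bare alloy. Its lowest coated library lay above the highest bare alloy library, yet neither fold change passed the edgeR test (0.35 with adjusted p = 0.263 for HA coating, 0.11 with adjusted p = 0.320 for TiB2).

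**Figure D4:**
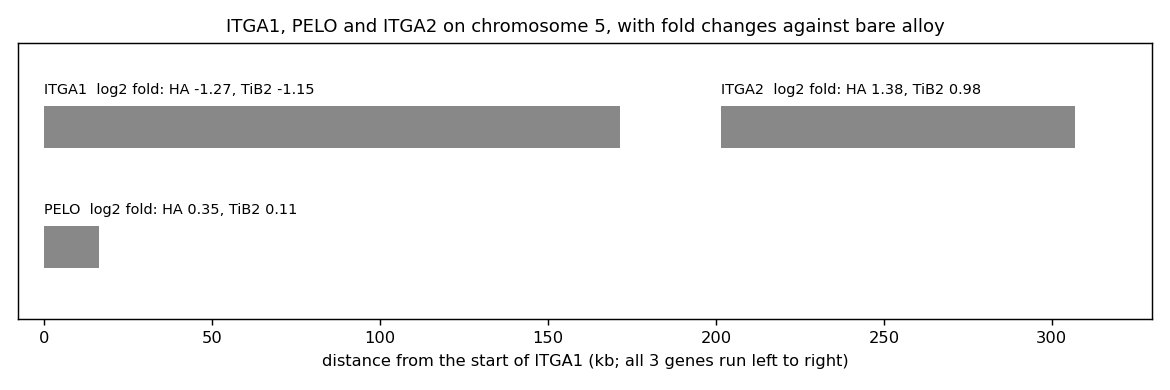
ITGA1, PELO and ITGA2 drawn to scale by distance from the start of ITGA1 (horizontal axis, kb), with each gene's log2 fold change against bare alloy. ITGA1 is lower (-1.27 and -1.15) and ITGA2 higher (1.38 and 0.98) on HA coating and TiB2, while PELO passes no test.

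The promoters of 4 of the 5 changed genes, those with a single start in the RefSeq table, are shown because ITGA1, ITGA11 and ITGBL1 fell where ITGA2 rose. Each is the 250 bases before the RefSeq start on GRCh38.p14, read along the gene's strand, with matches to GGGCGG or its reverse complement, the core of Sp1 sites, in capitals.
ITGA1: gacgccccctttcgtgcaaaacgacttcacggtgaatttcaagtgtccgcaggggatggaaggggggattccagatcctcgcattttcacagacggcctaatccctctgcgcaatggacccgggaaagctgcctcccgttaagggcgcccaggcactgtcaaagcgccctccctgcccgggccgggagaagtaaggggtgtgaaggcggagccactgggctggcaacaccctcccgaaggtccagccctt
ITGA2: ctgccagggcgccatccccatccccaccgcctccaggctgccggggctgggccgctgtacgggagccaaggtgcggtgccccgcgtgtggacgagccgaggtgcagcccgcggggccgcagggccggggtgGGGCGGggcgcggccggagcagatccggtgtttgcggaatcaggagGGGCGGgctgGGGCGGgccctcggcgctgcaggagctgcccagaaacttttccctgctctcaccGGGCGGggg
ITGA11: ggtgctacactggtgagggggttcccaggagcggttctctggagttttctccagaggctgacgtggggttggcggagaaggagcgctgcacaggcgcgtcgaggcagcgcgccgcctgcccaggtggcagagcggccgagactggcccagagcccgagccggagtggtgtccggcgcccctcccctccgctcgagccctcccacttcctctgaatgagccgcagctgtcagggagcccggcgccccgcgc
ITGBL1: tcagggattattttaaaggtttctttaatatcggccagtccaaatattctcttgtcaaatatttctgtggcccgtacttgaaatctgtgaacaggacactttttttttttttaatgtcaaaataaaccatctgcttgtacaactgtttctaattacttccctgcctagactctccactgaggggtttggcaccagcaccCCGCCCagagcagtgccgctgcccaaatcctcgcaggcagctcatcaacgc
These windows lie at chr5:52787666-52787915 (plus strand) for ITGA1, chr5:52989102-52989351 (plus) for ITGA2, chr15:68432164-68432413 (minus) for ITGA11 and chr13:101452425-101452674 (plus) for ITGBL1. The ITGA2 window held 4 matches, the ITGBL1 window 1, and the ITGA1 and ITGA11 windows none, where 42.6% of 35116 windows of this length held at least 1. The share of windows with 4 matches was not taken, and windows of like GC content were not compared. Whether 4 matches is unusual for the ITGA2 window was therefore not tested. None of the 4 matched TGANTCA, the AP-1 core, on either strand, and 6.57% of all windows did. None matched the RUNX core TGTGGT, held by 11.0% of windows. Nor did any match CAGACA, the SMAD core (13.6% of windows), or the TATA box as TATAAA (10.7% of windows). The GC content was 62.0% for ITGA1, 76.4% for ITGA2, 71.2% for ITGA11 and 44.0% for ITGBL1, against a median of 58.0% over all windows. A match is a description of the letters and not a site in use, and the ITGA1 window is also that of PELO.

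Among the collagens, the ligands of these receptors, the chains of type I, COL3A1, COL5A2, COL5A3, COL6A3, COL8A1 and COL13A1 fell on both coated surfaces, and the chains of type IV and COL6A1 and COL6A2 did not fall past the test on either. Of 15 collagen genes tested for HA coating against bare alloy, 8 fell, 0 rose and 7 did not pass, with a median log2 fold change of -1.13 against 0.02 over all genes, of which 4.88% fell. COL11A1 had 0.91 and did not pass. The largest falls were COL5A3 (-2.93), COL1A2 (-2.14), COL6A3 (-1.87) and COL1A1 (-1.42), with adjusted p from 0.000246 to 0.0445 in the edgeR test. COL1A2 had 106, 46.4 and 63.0 FPKM on the HA coating, 94.7, 101 and 85.9 FPKM on TiB2, and 307, 301 and 328 FPKM on bare alloy. For TiB2 against bare alloy, 10 of 14 fell, 1 rose and 3 did not pass, with a median of -0.80 against 0.00 over all genes, of which 12.2% fell. Its largest changes were COL5A3 (-2.42), COL13A1 (-2.17), COL1A2 (-1.79) and COL1A1 (-1.24), and COL4A2, a chain of basement membrane collagen, rose by 0.37. Leaving out a library changed the count of falls on the HA coating to between 4 and 13: it was 13 without HA replicate 1, 4 without HA replicate 2, 5 without bare replicate 1 and 4 without bare replicate 2 or 3. On TiB2 it was 9 or 10 when any library was left out, 7 with all 9 libraries in the same fit and 5 when the library set entered the fit.

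Of the other alpha chains that pair with ITGB1, ITGA8 and ITGA6 fell on both coated surfaces. For HA coating against bare alloy 2 of 8 fell, 0 rose and 6 did not pass (median log2 fold change -0.41). Over all genes, 4.88% fell and 5.02% rose in that comparison. The falls were ITGA8 (-1.03), a receptor for RGD proteins, and ITGA6 (-0.66), a laminin receptor chain. For TiB2 against bare alloy ITGA8 (-1.48) and ITGA6 (-1.07) fell, ITGA5 (0.45), the fibronectin receptor chain, and ITGAV (0.30) rose, and 4 did not pass (median 0.01). There 12.2% of all genes fell and 12.9% rose. With the library set in the fit 0 of the 8 passed for HA coating (2 by DESeq2 without it), and on TiB2 2 fell and 0 rose, as with all 9 libraries in the same fit. The 4 collagen-binding chains made up a share of the summed FPKM of all 12 of these alpha chains of 16.3% ± 3.87 on the HA coating, 18.0% ± 1.16 on TiB2 and 28.0% ± 0.56 on bare alloy (SD, n = 3 each).

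Genes that switch integrins on, and those that build the adhesion on the inner side of the membrane, were counted next. Among 13 activation genes, talins and kindlins included, 0 passed for HA coating against bare alloy in the edgeR test (0 with DESeq2 or limma, 2 at an unadjusted p under 0.05) and 1 passed for TiB2, the kindlin FERMT2 (-0.24), against 4 with DESeq2. Among 17 adhesion complex genes, 1 fell on the HA coating, the tensin TNS2 (-1.01), and 4 fell on TiB2, TNS2 (-0.64), the actinin ACTN4 (-0.49), TNS1 (-0.36) and VCL (-0.31), the gene of vinculin. The 4 on TiB2 are a share near the 25.1% of all genes called there. The other edgeR counts of these lists were below the share of all genes called, 9.89% on the HA coating and 25.1% on TiB2. At 5 FPKM or more, edgeR called 0 of 8 activation genes and 2 of 13 adhesion genes on the HA coating. On TiB2 it called 4 of 8 and 5 of 14. DESeq2 called 5 of the 17 adhesion genes on the HA coating and 6 on TiB2. With the library set in the fit edgeR called 0 of either list on either surface, and with all 9 libraries in the same fit it called 5 adhesion genes on the HA coating and 0 on TiB2. Their median log2 fold changes were -0.07 and -0.11 for activation genes and -0.30 and -0.09 for adhesion genes, on HA coating and on TiB2.

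Of 13 genes for the shedding and signalling of discoidin receptors, 0 passed for HA coating against bare alloy in the edgeR test (1 with DESeq2, 0 with limma, 4 at an unadjusted p under 0.05), where the median was -0.04. On TiB2 4 rose, 3 fell and 6 did not pass (median 0.18), led by STAT5A (0.88), the transcription factor gene SNAI2 (-0.78), STAT5B (0.75) and ADAM10 (0.53), the protease that sheds DDR1. These 7 calls stand beside 25.1% of all genes called, and were 3, 2 higher and 1 lower, with all 9 libraries or with the library set in the fit. At 5 FPKM or more, 7 of 12 genes of this list passed on TiB2, where 2859 of 6677 genes passed. Of 6 other collagen receptors tested for HA coating against bare alloy, 1 fell, 1 rose and 4 did not pass, where 9.89% of all genes passed. Of 7 tested for TiB2 against bare alloy, 2 fell, 1 rose and 4 did not pass, where 25.1% of all genes passed. MRC2, an endocytic receptor that takes up collagen, fell by 1.43 on the HA coating and fell by 0.73 on TiB2. CD36, a scavenger receptor, rose on both (1.72 and 2.03), at 0.186 FPKM on the HA coating, 0.233 on TiB2 and 0.0552 on bare alloy. CD44, the hyaluronan receptor, fell on TiB2 (-0.45). With the library set in the fit CD36 alone of these receptors passed on either surface. Of the 74 listed genes tested for HA coating against TiB2, 0 passed in the edgeR test, 4 with DESeq2 and 0 with limma, and 17 had an unadjusted p under 0.05. Leaving out 1 of the 6 libraries ended several single calls of HA coating against bare alloy: those of COL1A1, ITGA6, TNS2 and MRC2 in 5 of the 6 fits, COL3A1, COL8A1 and CD36 in 4 and ITGA8 and COL6A3 in 3. For TiB2 against bare alloy the same happened to FERMT2 in 6 of the 6 fits, to COL4A2, ITGAV and NCK2 in 4, to VCL in 3 and to COL16A1, FURIN and TNS1 in 1.

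**Figure D5:**
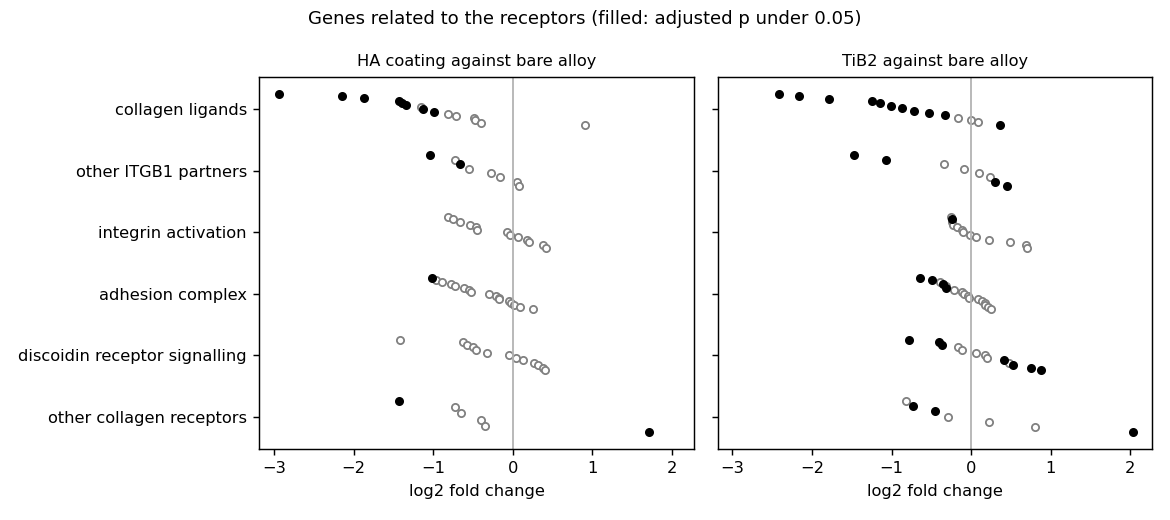
Log2 fold change of each tested gene of 6 related lists (horizontal axis) for HA coating and for TiB2 against bare alloy, filled where the adjusted p is under 0.05. The collagens form the lowest group in both panels, with medians of -1.13 and -0.80.

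Some genes followed the pattern of the alpha chains closely over the 9 libraries. Among 6853 genes with at least 5 FPKM in a group, ITGA11 was followed most closely by TBC1D2B (r = 0.995), COL12A1 (0.993) and C14orf132 (0.989). For ITGA2 they were FAM102B (0.976), DIAPH3 (0.966) and LSG1 (0.962), and for ITGA1 they were XPR1 (0.982), PHF20 (0.974) and TBX18 (0.974). COL12A1, a collagen that lies along collagen fibrils, had 7.27, 4.37 and 2.55 FPKM on the HA coating, 9.18, 8.50 and 8.19 FPKM on TiB2, and 18.8, 21.7 and 22.1 FPKM on bare alloy. These are Pearson correlations of log2 values across the same 9 libraries, whose surfaces differ strongly, and are given as a description.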

How the data were processed

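RNA of MG-63 cells was sequenced from 9 libraries, and groups and replicate numbers came from the labels. The authors deposited raw counts and FPKM values (counts scaled by gene length and library size) per gene in the same table. The submitters' processing notes list the build GRCh38 and featureCounts 2.0.1, StringTie 2.1.4, limma, HISAT2 2.2.1 and cutadapt 2.10, with no role for each. Whether counting used strand, and how it took multi-mapped reads, is not given in the sources used here.

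Each comparison used its own 6 libraries: genes were filtered by edgeR's filterByExpr, scaled by TMM and compared with the two-sided quasi-likelihood test (edgeR 4.0.16, R 4.3.3), with Benjamini-Hochberg adjustment over all genes tested and a threshold of 0.05. FPKM values served for levels and shares, and shares were compared by exact permutation of library labels (scipy 1.17.1). Alternatives were DESeq2 1.42.0, limma 3.58.1 on log2(FPKM + 1) and on log2(FPKM + 0.1), other filters and scalings, a fit of all 9 libraries, a replicate block and leaving out each library. In tests on simulated data, the share of planted 2-fold changes that edgeR found was 14% for HA coating against bare alloy, 48% for TiB2 against bare alloy and 17% for HA coating against TiB2; of planted 4-fold changes it found 60%, 75% and 77%, over 20117, 20152 and 20086 genes.

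All 8 genes are named whatever their result. Related genes are named up to 4 per list and comparison, by size of change among those past the threshold; PELO, FGF14 and COL12A1 are named for position or likeness. The members and lists were chosen with earlier results of these data known. Intervals of log2 fold changes are 95%. Promoters are RefSeq windows on GRCh38.p14, and codons come from GENCODE 29 transcripts.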

Additional observations from a re-analysis of the deposited data

How the results depend on the processing

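Of the fold changes of the 8 genes under the alternatives, 388 of 390 kept their call, the exceptions being ITGA11 for TiB2 against bare alloy when the library set entered the fit (-1.14) and for HA coating against TiB2 without HA replicate 1 (-1.52). The number of genes called for HA coating against bare alloy was 1990, against 3562 with DESeq2, 1093 with no filter, 1148 at 5 FPKM or more, 3518 with all 9 libraries, 704 when the library set entered the fit and 598 to 4185 when 1 library was left out (4185 without HA replicate 1, 1092 without HA replicate 2, 857, 598 and 601 without bare replicates 1, 2 and 3). For TiB2 against bare alloy it was 5059, against 2859 at 5 FPKM or more, 2132 with all 9 libraries and 1173 when the library set entered the fit. For HA coating against TiB2 it was 127, against 501 with DESeq2, 35 with no filter, 38 at 5 FPKM or more, 67 with all 9 libraries and 49 to 1224 when 1 library was left out (1224 without HA replicate 1, 49 without HA replicate 2, 49, 66 and 62 without TiB2 replicates 1, 2 and 3), and the members called were 0 to 1. Same-numbered libraries correlated at -0.17 to 0.18 in their deviations. Differently numbered libraries were not compared, so whether the replicate numbers pair the libraries is not settled. A replicate block gave 1357 calls for HA coating against bare alloy, 3625 for TiB2 against bare alloy and 195 for HA coating against TiB2, with the same calls among the 8 genes. When counts replaced FPKM, the ITGA1 share difference for HA coating against bare alloy was 0.65 in place of -0.033 percentage points, and the differences that moved by more than 1 SD were 39.1 (ITGA2), 0.477 (ITGA10) and -40.3 (ITGA11) for HA coating against bare alloy, 17.4 (ITGA2) and -16.6 (ITGA11) for TiB2 against bare alloy, and 1.55 (ITGA1) and 0.379 (ITGA10) for HA coating against TiB2. With 0.1 FPKM added, the ITGA10 differences were 1.04 for HA coating against bare alloy, 0.305 for TiB2 against bare alloy and 0.736 for HA coating against TiB2 and that of the log2 ratio of ITGA2 to ITGA1 was 2.41 for HA coating against bare alloy. The cause of these movements was not tested. At 5 FPKM or more, ITGA1, ITGA10 and DDR1 were not tested in any comparison, and ITGBL1 was not tested for HA coating against TiB2.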
